A study of Mus musculus with 4 samples.

Results

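The 10 genes described here encode transcription factors that maintain or specify blood stem cells: Runx1, Gata2, Tal1, Lmo2, Lyl1, Erg, Fli1, Meis1, Hlf and Myb. They were taken by name from 21887 protein-coding genes, at their bounds in the mm10 assembly, and every peak with a summit in the gene or within 100 kb of either end was collected. Fixed chromatin bound by Flag-tagged protein was pulled down with a Flag antibody and sequenced (ChIP-seq) from lineage-negative bone-marrow cells, which are marrow cells without mature-lineage surface markers and include stem and progenitor cells. The cells came from C57BL/6 mice aged 8 weeks with the genotype 3xFlag-Nynrin-Tg, that is, with a transgene for Nynrin tagged with Flag, and all 4 libraries of the series share that genotype. There were 2 Flag ChIP libraries and 2 input libraries. The peak lists of the Flag ChIP libraries, called replicate 1 and replicate 2 as numbered in the labels, were analysed, and the input libraries and any untagged control were not analysed here. The promoter that drives the transgene, whether animals were pooled and whether the replicates came from separate animals are not given in the sources used here, so any spread between the lists may be technical. Peak lists carry no expression values and no read counts, so the cell label was not checked against markers and the depth behind each peak is unknown.

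Runx1, Gata2, Tal1, Lmo2, Lyl1, Erg and Fli1 are known as a group of factors that bind many of the same regulatory elements in blood stem and progenitor cells, including elements of their own genes. Meis1 is a homeobox factor that partners with HOX and PBX proteins, Hlf is a basic leucine zipper factor of stem cells, and Myb is a factor needed for definitive blood formation and progenitor growth. Their transcription is known to depend on enhancers inside the genes and far away from them as well as on their promoters, which is why the wide window was used.

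The sequences of 5 start sites are shown first because the results turn on which of them carried a peak. They are the 250 bases before the start in the RefSeq promoter table (GRCm38.p6, the assembly behind mm10), in which 8 of the 10 genes have an entry. Runx1 has a pair of promoters, a distal one (P1, window chr16:92826075-92826324, minus strand) and one 128745 bp downstream inside the gene (P2, window chr16:92697330-92697579, minus strand), and both lay under peaks in both replicates. The Tal1 window (chr4:115056176-115056425, plus strand) lies just outside peaks of both replicates. The Myb (chr10:21160985-21161234, minus strand) and Hlf (chr11:90390918-90391167, minus strand) windows lay wholly or partly under a peak in replicate 2 and under none in replicate 1. Capitals mark matches on either strand. The letters searched for GATA factors were GATAAG, with GATAAC as its other form. For RUNX factors they were TGTGGT, with TGCGGT as the other form. For ETS factors they were GGAAGT, with a second form GGAAAC, which differs at its end, and a longer form CAGGAAG that can overlap the first. For E-boxes, the sites of Tal1 and Lyl1, they were CAGCTG, with CAGGTG as the other form.
Runx1 P1: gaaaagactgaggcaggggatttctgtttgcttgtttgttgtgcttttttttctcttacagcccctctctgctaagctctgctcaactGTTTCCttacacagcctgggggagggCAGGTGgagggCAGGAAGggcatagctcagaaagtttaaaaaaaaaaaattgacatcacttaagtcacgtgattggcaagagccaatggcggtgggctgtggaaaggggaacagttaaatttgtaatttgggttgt
Runx1 P2: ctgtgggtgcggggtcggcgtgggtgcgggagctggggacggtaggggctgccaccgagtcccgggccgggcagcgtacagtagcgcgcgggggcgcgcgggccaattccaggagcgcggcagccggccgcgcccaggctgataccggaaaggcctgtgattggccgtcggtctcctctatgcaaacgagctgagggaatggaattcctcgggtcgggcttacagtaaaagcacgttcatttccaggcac
Tal1: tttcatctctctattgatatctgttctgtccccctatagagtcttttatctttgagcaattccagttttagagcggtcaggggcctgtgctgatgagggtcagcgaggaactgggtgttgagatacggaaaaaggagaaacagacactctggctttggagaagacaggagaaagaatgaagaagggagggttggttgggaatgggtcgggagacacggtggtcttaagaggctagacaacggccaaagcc
Myb: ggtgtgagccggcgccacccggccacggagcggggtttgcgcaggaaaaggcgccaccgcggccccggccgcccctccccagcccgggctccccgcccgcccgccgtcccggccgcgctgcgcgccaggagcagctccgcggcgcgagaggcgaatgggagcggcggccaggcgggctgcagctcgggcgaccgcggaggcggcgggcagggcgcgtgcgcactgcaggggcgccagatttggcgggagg
Hlf: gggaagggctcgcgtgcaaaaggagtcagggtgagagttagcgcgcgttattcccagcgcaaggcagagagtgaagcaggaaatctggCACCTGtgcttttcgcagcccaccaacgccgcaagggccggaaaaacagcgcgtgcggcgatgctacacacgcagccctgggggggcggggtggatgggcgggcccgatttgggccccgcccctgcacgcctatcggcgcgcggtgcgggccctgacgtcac

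In these 5 windows the capitals mark 2 ETS sequences and 1 E-box before Runx1 P1 and 1 E-box before Hlf, and nothing before Runx1 P2, Tal1 and Myb. Over all 21263 listed start sites of protein-coding genes, 37.9% of windows of this length held one of the ETS sequences, 26.7% one of the E-boxes, 17.7% one of the RUNX sequences and 9.89% one of the GATA sequences. A match is a string of letters, not a bound site, and the sequences under peaks elsewhere in the loci were not read. Of the letters not put in capitals, the MYB core AACNG (in 73.1% of all windows) occurred 5 times before Runx1 P1, 5 times before Tal1 and 1 time before Hlf. Each strand was counted. Before Runx1 P1 the matches that begin 166 and 164 bases before the start overlap on opposite strands, as do those at 27 and 25. The open E-box CANNTG (62.8%), which includes both E-box forms above, occurred 3 times before Runx1 P1 and 1 time before Hlf. The MEIS core TGACAG (15.4%) and the PAR bZIP site TTACNNAA (7.39%) occurred in none of the 5. These 5 do not stand for all 13 member windows in the table. Of the 8 not shown, the window before the last listed Erg start site held 2 MEIS, 1 GATA and 1 ETS sequence and 1 E-box. The Meis1 window held 1 RUNX, 1 ETS and 1 PAR bZIP sequence, and the Lyl1 window held 1 E-box. The other 5, before further Erg, Gata2 and Tal1 start sites, held none of these. Over the 13 windows an ETS sequence was found in 3, an E-box of the first forms in 4, and a GATA, RUNX, MEIS and PAR bZIP sequence in 1 each. The windows also differed in CpG content. The window before Runx1 P1 holds 2 CpG dinucleotides and that before Runx1 P2 holds 27, against 6 before Tal1, 40 before Myb and 26 before Hlf, and the median over all start sites was 10.

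How many of the 10 genes had a peak at an end was examined first. A gene was counted as called when both replicates had a summit within 1000 bp of either end. Only Runx1 and Tal1 were called, 2 of 10 genes, where 31.9% of all protein-coding genes were called by the same rule. In replicate 1 the same 2 of 10 genes had such a summit (32.6% of all genes), and in replicate 2 it was 9 of 10 (45.5% of all genes). Gata2, Lmo2, Lyl1, Fli1, Meis1, Hlf and Myb had a summit at an end in replicate 2 alone. That is 7 of 10 genes, where 13.6% of all genes were in that class. Erg had none at either end in either list. The replicate 2 list is longer, with 25787 peaks against 12702 in replicate 1, and the part that list length has in this split was not tested.

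**Figure D1:**
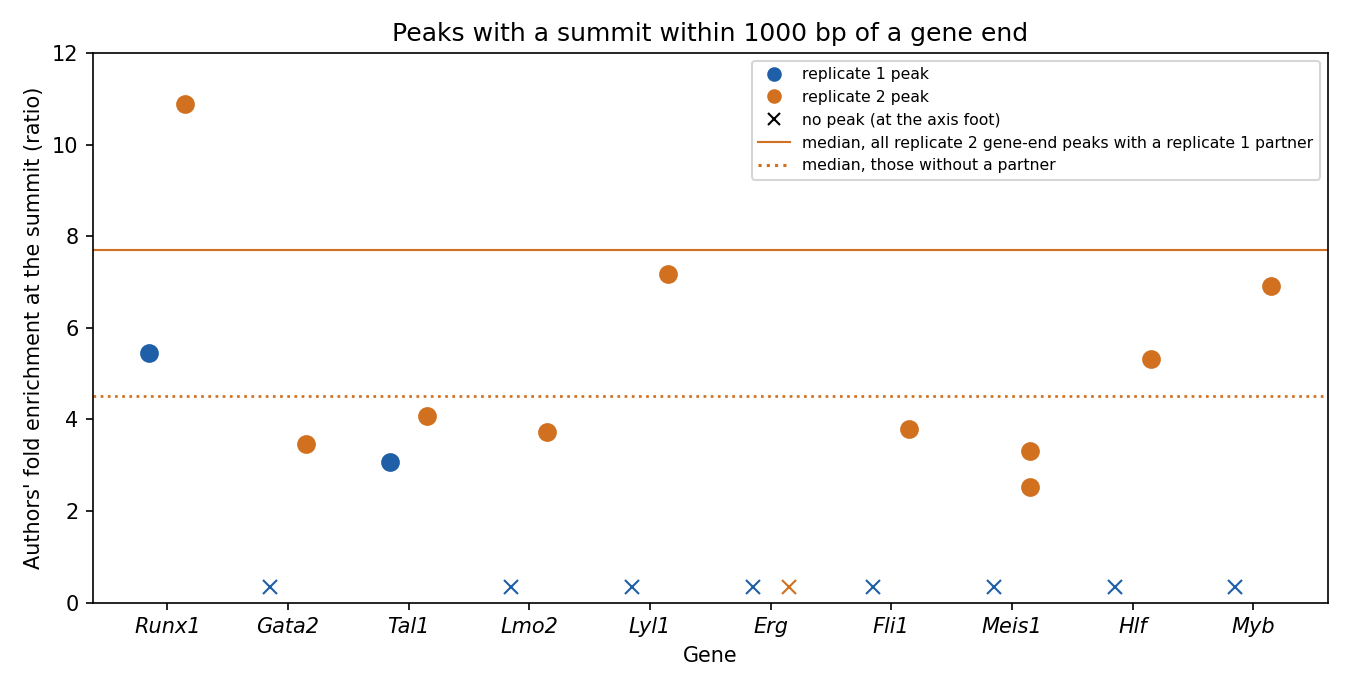
Authors' fold enrichment (ratio, vertical axis) of every peak with a summit within 1000 bp of an end of each gene (horizontal axis), in replicate 1 (blue) and replicate 2 (orange), with crosses where a list has no such peak and lines at the replicate 2 medians of all gene-end peaks with (solid, 7.71) and without (dotted, 4.52) a replicate 1 partner. Only Runx1 and Tal1 have a point in both colours, and Runx1 in replicate 2 is the single point above the solid line.

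The authors' fold enrichment is the signal at the summit over the peak caller's background, and it serves here to describe and rank peaks within a list. At Runx1 P1 it was 5.45 in replicate 1 and 10.9 in replicate 2, which placed the peak at percentile 84.6 of the first list and 96.7 of the second. At Tal1 it was 3.06 in replicate 1 and 4.07 in replicate 2, or percentiles 11.4 and 36.1, so the second called gene rested on weak peaks in both lists. The Tal1 summits lay 610 and 514 bp inside the gene, and Tal1 was not called with a window of 500 bp, or when both lists had to reach 5 in −log10 q or in fold enrichment. Runx1 was called under all of these, as 1 of 10 members beside 27.9%, 21.1% and 9.52% of all genes. With a window of 3000 bp 4 of 10 members were called, Lyl1 and Myb among them, beside 36.8% of all genes.

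The end peaks that replicate 2 had without a partner numbered 8, because Meis1 had 2 of them. Lyl1 (7.17), Myb (6.91) and Hlf (5.31) had the highest fold enrichments, and Fli1 (3.79), Lmo2 (3.72), Gata2 (3.45) and Meis1 (3.32 and 2.51) the lowest. Their median of 3.76 stands beside 4.52 for all replicate 2 gene-end peaks without a replicate 1 partner and 7.71 for those with one. The Fli1 summit lay 745 bp inside the gene. The Meis1 summits lay 770 and 222 bp inside, which is 88 and 460 bp from the listed Meis1 start site, and a further Meis1 peak (4.25) lay just past the window, 1096 bp outside the gene. Where start sites were listed, each of the 10 end peaks of those genes, of either replicate, lay within 1000 bp of one, so these ends are the 5′ ends. Lmo2 and Fli1 had no listed start site, so whether their replicate 2 end peaks lay at a 5′ end was not examined. Counted by listed start sites in place of gene ends, Runx1 and Tal1 were again the called members. That is 2 of the 8 members with an entry, beside 34.5% of the 17492 genes with an entry.

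CpG content around start sites was then set beside the calls, since the base composition of the windows differed so widely. Start sites with a summit within 1000 bp in both replicates had a median of 19 CpG in the 250 bases before them (n = 7016), those with one in replicate 2 alone had 14 (n = 2875), and those with none had 3 (n = 11214). Of all listed start sites 33.0% had a summit in both replicates. Of 4801 start sites with at most 2 CpG, 2.06% had a summit in both replicates, and Runx1 P1 was one of these 99. Of 5048 start sites with at least 20 CpG, 63.8% had one, while of the members' start sites in that class only Runx1 P2 did. Myb, whose window stood at percentile 98.3 by CpG count, Hlf and the first Gata2 start site (22 CpG) had a summit in replicate 2 alone, and the second Gata2 start site (24 CpG) had none in either list. These limits on CpG were chosen with the members' values known.

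Across the whole loci, 40 replicate 1 peaks and 106 replicate 2 peaks were found. Of the replicate 1 peaks, 2 lay at an end of a member, 16 inside a member and 22 in the flanks, 8 of which were at the end of a neighbouring gene. Of the replicate 2 peaks, 10 lay at an end, 39 inside and 57 in the flanks, 8 of which were at a neighbour's end. Peaks of the replicates that overlap by 1 bp or more are called shared. In replicate 1, 30 of 40 locus peaks were shared (75.0%), where 89.2% of all replicate 1 peaks were, and in replicate 2 it was 27 of 106 (25.5%), where 41.8% of all peaks were. The median fold enrichment of the locus peaks was 3.94 in replicate 1 (4.04 over all peaks) and 3.99 in replicate 2 (4.66 over all peaks). These sets differ in make-up. Over all peaks, 50.3% in replicate 1 and 36.4% in replicate 2 lay within 1000 bp of a protein-coding gene end. Median fold enrichment of those gene-end peaks was 4.18 and 6.47. Locus peaks were not compared with all peaks of the same position class, so the lower sharing and medians may reflect position. Relative to the span searched, the median member had 1.22 peaks per 100 kb in replicate 1 and 3.28 in replicate 2, against medians of 0.891 and 1.79 over all protein-coding genes. Members differed widely. In replicate 1 Gata2 and Meis1 stood at percentile 0 of all genes, and Erg, Hlf and Lmo2 at 45.2, 46.7 and 50.1. Fli1, Tal1, Runx1, Myb and Lyl1 stood at 68.0, 72.5, 77.4, 87.7 and 94.0. In replicate 2 the range was 40.7 (Meis1) to 93.8 (Lyl1). Of the 8 replicate 1 peaks at Lyl1, 5 were at a neighbour's end.

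**Figure D2:**
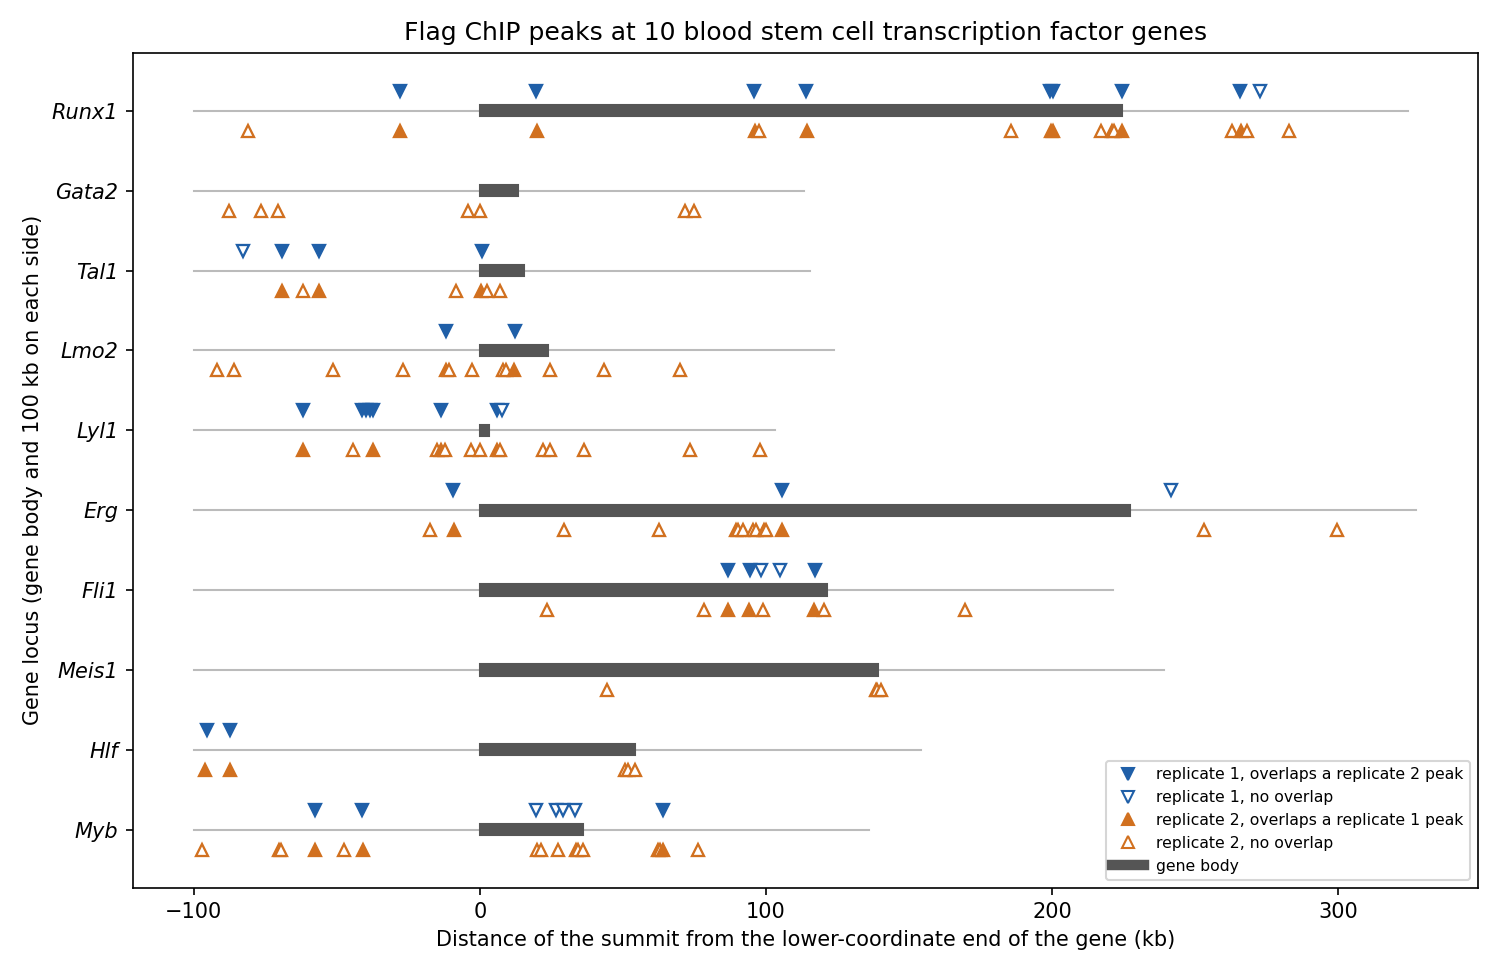
Summits at the 10 loci (rows), plotted by distance in kb from the lower-coordinate end of each gene, with the gene body as a grey bar, replicate 1 above and replicate 2 below the line, and filled symbols for peaks that overlap a peak of the other replicate. Runx1 has filled symbols along the whole gene, Fli1 in the higher-coordinate part, and Gata2 and Meis1 have open replicate 2 symbols only.

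A shared peak inside the gene, more than 1000 bp from either end, was found in 4 of 10 members, Runx1, Fli1, Lmo2 and Erg, where 10.3% of all protein-coding genes had one. Several members are long genes. Among the 2429 genes of at least 100 kb, 23.4% had a shared internal peak, and of the 4 members of that length Runx1, Fli1 and Erg did and Meis1 did not. Shared internal peaks without an end call in both replicates were found in Fli1, Lmo2 and Erg, 3 of 10 members, where 6.04% of all genes were in that class. When both lists had to reach 5 in −log10 q, Erg lost its shared internal peak and 3 of 10 members kept one (5.01% of all genes). With fold enrichment of at least 5 in both lists, 0 of 10 members had one (2.16% of all genes). When overlap had to cover 50% of both peaks, Runx1 and Erg kept one and Fli1 and Lmo2 did not, which left 2 of 10 (5.81% of all genes). Counted from one list alone, with or without a partner, 5 members had an internal peak in replicate 1 (11.9% of all genes) and 8 in replicate 2 (22.7%).

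Runx1, which encodes the DNA-binding subunit of core binding factor, spans 224609 bp on chromosome 16 (92601466 to 92826074, minus strand). It had 9 peaks in replicate 1 and 17 in replicate 2, and 8 of each were shared. The P1 peak covered 92825344 to 92826484 in replicate 1 and 92824940 to 92826583 in replicate 2, with summits 24 bp inside and 45 bp outside the gene. Besides P1 there were 5 shared internal peaks, a number reached by 0.782% of genes of at least 100 kb. The 5 include the peak at the P2 start site and a pair of adjacent peaks.

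The P2 peak is internal by the gene bounds but lies at a start site. Its summits were 36 bp (fold enrichment 3.23) and 178 bp (4.74) from the P2 start, so it was weaker than the P1 peak in both lists. The strongest internal peak stood between the promoters, 110490 bp downstream of P1 in replicate 1 and 110404 bp in replicate 2, with fold enrichments of 4.69 and 7.04 and summits 86 bp apart. Nearer to P1 lay a pair of adjacent shared peaks, 24268 and 25186 bp downstream of P1 in replicate 1 (3.52 and 3.90) and 24225 and 25023 bp in replicate 2 (4.52 and 3.72). The interval between P1 and P2 is known to hold an enhancer active in blood stem cells, and whether any of these peaks lies on it was not examined. The last shared internal peak was 19488 bp from the 3′ end in replicate 1 (3.68) and 20033 bp in replicate 2 (4.52).

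Outside Runx1, shared peaks lay 41060 bp upstream of P1 in replicate 1 (3.84) and 41471 bp in replicate 2 (5.24), and 28065 bp past the 3′ end in replicate 1 (3.18) and 27997 bp in replicate 2 (3.40). The 9 replicate 2 peaks without a partner ranged from 2.92 to 4.52. Of these, 3 clustered 2872, 3450 and 7309 bp downstream of P1. In both lists the P1 peak was the strongest of the locus, and the peak between the promoters was the next.

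**Figure D3:**
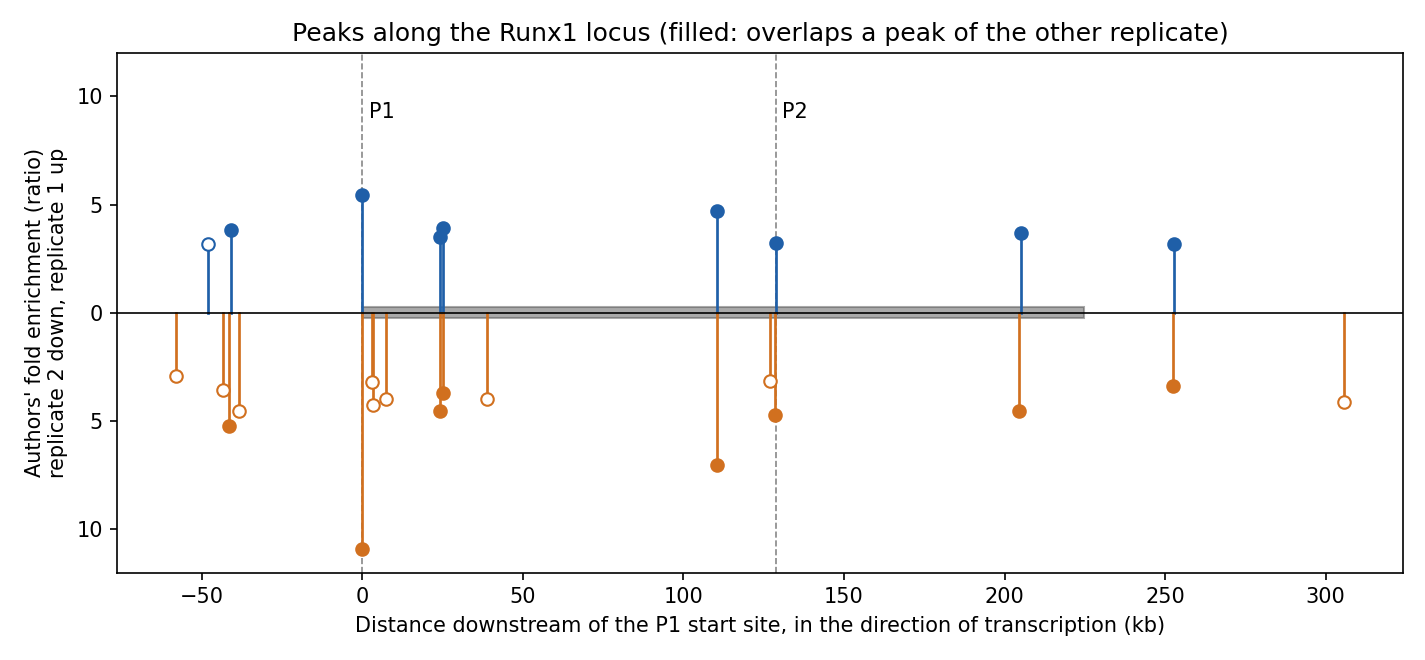
Authors' fold enrichment (ratio) of each peak of the Runx1 locus against its distance in kb downstream of the P1 start site, with replicate 1 drawn upward and replicate 2 downward, the gene body as a grey bar and filled symbols for shared peaks. P1 carries the tallest stem in both directions (5.45 and 10.9), and 5 shared peaks follow inside the gene, one of them at P2.

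Gata2 encodes a zinc finger factor required for stem cell maintenance and lies on chromosome 6 (88193891 to 88207032, plus strand). Replicate 1 had no peak in its locus, and its nearest replicate 1 summit was 109340 bp from the first start site. Replicate 2 had 7 peaks, none shared. One lay 131 bp inside the gene (88193937 to 88194249, fold enrichment 3.45, −log10 q 2.76) and one 4007 bp upstream (4.26). The others were at least 58592 bp away, and the strongest of them (6.40) lay 908 bp from an end of Rpn1, which encodes a subunit of the oligosaccharyltransferase. No peak in either list was inside Gata2 beyond the one at its start.

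Tal1, Lyl1 and Lmo2 belong to a single complex, in which the basic helix-loop-helix proteins Tal1 or Lyl1 bind E-boxes with an E protein and Lmo2 bridges them to GATA factors. Tal1 lies on chromosome 4 (115056426 to 115071755, plus strand), with listed start sites at 115056426 and 115057811. The replicate 1 peak (115056732 to 115057060) fell between the start sites, and the replicate 2 peak (115056762 to 115058233) covered the second as well, with summits 96 bp apart. Replicate 2 had 2 more peaks inside the gene, 2596 and 6933 bp from the first start (3.24 and 3.19), without partners. The strongest peaks of the Tal1 locus belonged to its neighbours by position. Shared peaks at the ends of Stil, a centriole duplication gene, had fold enrichments of 6.20 and 8.85, and those at Cmpk1, a nucleotide kinase gene, 4.69 and 7.17. No shared peak of the locus lay away from gene ends.

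Lyl1, a close relative of Tal1, is a short gene on chromosome 8 (84701423 to 84704716, plus strand) among many neighbours. Its own start carried a wide replicate 2 peak (84699698 to 84702235, fold enrichment 7.17, −log10 q 13.97) with its summit 109 bp from the listed start, and the nearest replicate 1 summit to that start was 6053 bp away. A shared peak lay just beyond the higher-coordinate end of the gene, 2794 bp in replicate 1 (84707483 to 84707768, 3.12) and 2648 bp in replicate 2 (84704369 to 84707766, 4.59). With a window of 3000 bp Lyl1 was therefore a called gene, through these summits. Most shared peaks of the locus were again at neighbours. They lay at an end of the calcium channel gene Cacna1a (5.90 and 9.03), at the immediate early gene Ier2 and at Nacc1, which encodes a transcriptional regulator (4.51 and 5.05). At Ier2 a single replicate 2 peak of 6386 bp (8.53) covered 4 replicate 1 peaks with fold enrichments of 3.24 to 5.28, so counts of peaks there depend on how each list was cut.

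Lmo2 lies on chromosome 2 (103957903 to 103981878). Its replicate 1 list held 2 peaks and both were shared. The stronger lay 11990 bp outside the lower-coordinate end in replicate 1 (103945243 to 103946152, fold enrichment 5.21) and 11979 bp in replicate 2 (103944832 to 103946392, 6.38), with summits 11 bp apart. The other was inside the gene, near its middle, with fold enrichments of 3.81 and 5.05 and summits 101 bp apart, and the replicate 2 peak there was 3003 bp wide. The end peak of replicate 2 (3.72) lay 363 bp outside the higher-coordinate end. Neither list had a summit within 1000 bp of the lower-coordinate end, and the nearest was 2795 bp away, in replicate 2. Replicate 2 had 11 peaks without a partner, and the strongest (7.97) was 30 bp from an end of Fbxo3, a ubiquitin ligase subunit gene.

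Erg and Fli1 encode ETS factors of a shared subfamily. Erg is the longest of the 10 genes (227432 bp, chromosome 16, 95359169 to 95586600, minus strand), and its first listed start site had no summit nearer than 14265 bp in replicate 1 and 25849 bp in replicate 2. One internal peak was shared, with fold enrichments of 4.29 and 3.88 and summits 21 bp apart, 5554 and 5533 bp upstream of the last listed start site, which lies 127245 bp inside the gene. Replicate 2 alone had 7 further peaks within 10758 bp downstream of that start site (2.84 to 4.25), the nearest with its summit 172 bp away. A shared peak also lay 9242 and 9035 bp beyond the 3′ end (4.31 and 3.33). Erg thus carried its shared peaks upstream of an internal start site and past the gene. None had its summits within 1000 bp of a listed Erg start site, and the peaks nearest to the internal one were in replicate 2 alone.

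Fli1 spans 32422204 to 32543432 on chromosome 9. All 5 of its replicate 1 peaks were inside the gene, all in the part within 34456 bp of the higher-coordinate end, and 3 were shared. A number of 3 shared internal peaks or more was reached by 4.69% of genes of at least 100 kb. The strongest had its summit at the same base in both lists (32508976), with fold enrichments of 5.33 and 4.80. The second lay 26697 bp from the higher end in replicate 1 and 27076 bp in replicate 2 (4.59 and 3.54), and the third 3988 and 4283 bp from it (3.48 and 3.40). Another replicate 1 peak (3.70) was separated by 115 bp from a replicate 2 peak (3.99). The flanks of Fli1 were nearly empty, with no peak in replicate 1 and 1 in replicate 2 (2.92).

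Meis1 (chromosome 11, 18880428 to 19019651, minus strand) had the fewest peaks of the 10 loci. Replicate 1 had no peak, and its nearest summit to the listed Meis1 start was 901345 bp away. Replicate 2 had 4 peaks, 3 of them around the start, with fold enrichments from 2.51 to 4.25. Hlf (chromosome 11, 90336535 to 90390917, minus strand) had no replicate 1 peak inside the gene, and the nearest was 87228 bp outside it. The replicate 2 peak at its start (90390537 to 90391020, 5.31) had its summit 34 bp from the start site, and 2 weaker peaks lay 2582 and 3766 bp inside (3.72 and 3.63). The shared peaks of the Hlf locus were that one, at an end of Mmd (7.03 and 8.77), the strongest replicate 1 peak of all 10 loci, and one 95561 bp away, nearer to Mmd than to Hlf (3.82 and 4.03).

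Myb lies on chromosome 10 (21124930 to 21160984, minus strand). It had 7 peaks in replicate 1 and 16 in replicate 2, and only 3 in each were shared, all in the flanks. The replicate 2 peak at its start (21160748 to 21161811, fold enrichment 6.91, −log10 q 13.0) had its summit 5 bp from the start site. Replicate 1 had no peak there, and its nearest summit was 2889 bp inside the gene. Inside the gene 4 replicate 1 peaks (3.38 to 3.98) and 5 replicate 2 peaks (3.32 to 5.85) did not overlap, but 2 of the replicate 1 peaks were separated from a replicate 2 peak by only 17 bp and another by 142 bp. By the rule of 1 bp of overlap these gaps left Myb without a shared internal peak. Myb also had none when the summits of the replicates had to lie within 200 bp of each other. With a window of 3000 bp, which takes in the summits at 2889 bp and 5 bp, Myb was a called gene.

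**Figure D4:**
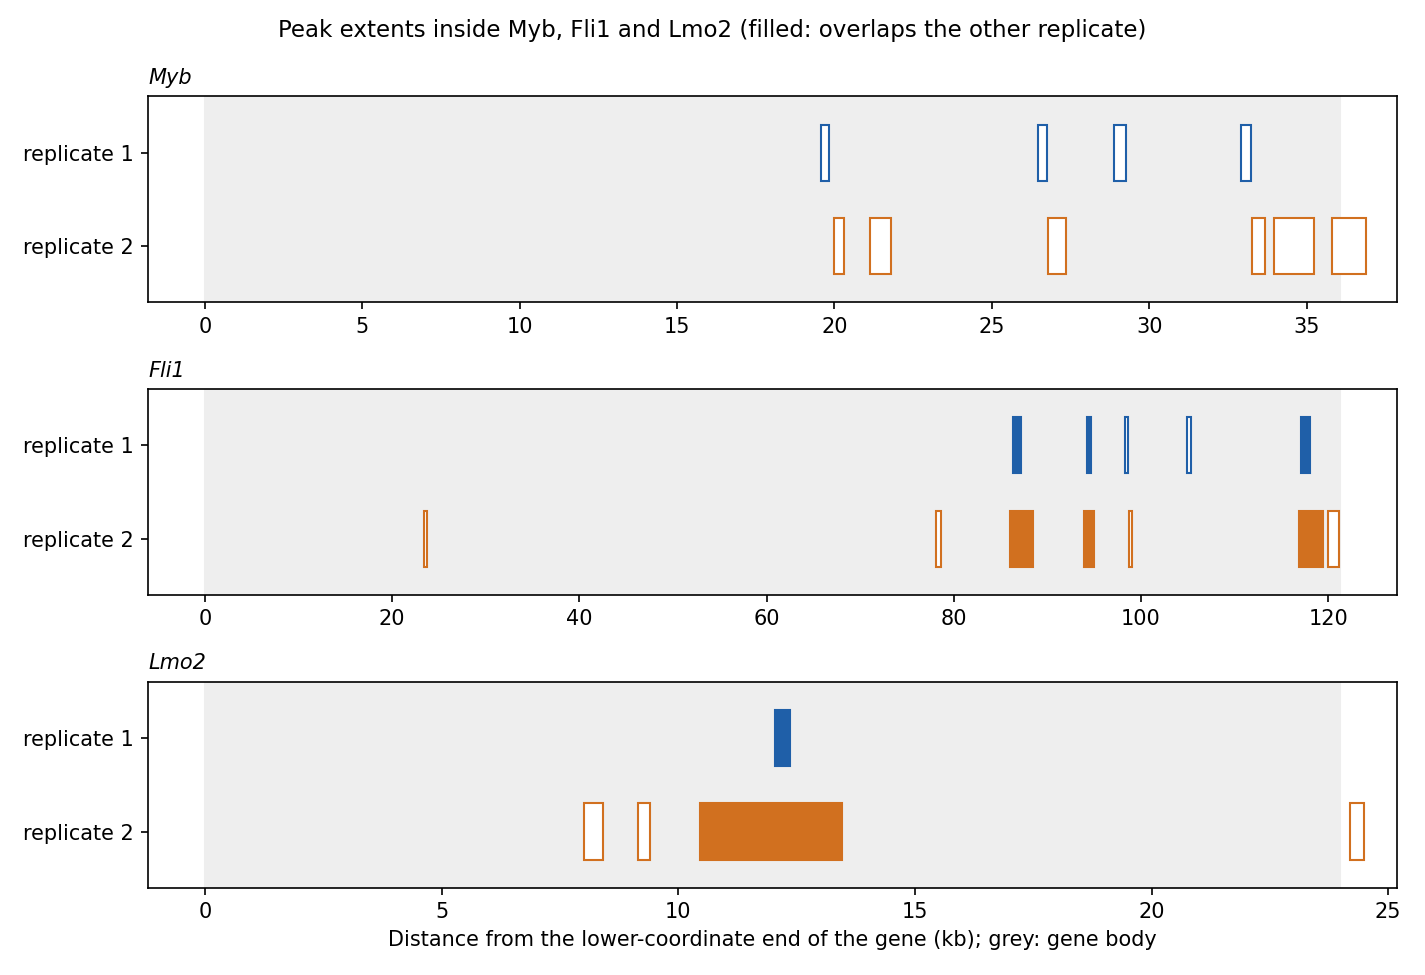
Extents of the peaks inside or at the ends of Myb, Fli1 and Lmo2, plotted in kb from the lower-coordinate end of each gene (grey band), with replicate 1 above replicate 2 and filled boxes for shared peaks. Myb has open boxes only, with several pairs nearly touching, Fli1 has 3 filled pairs in its higher-coordinate part, and Lmo2 has 1 filled pair near the middle.

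Upstream of Myb, in the direction of its start, a shared peak lay 28086 bp from the gene in replicate 1 (2.99) and 27950 bp in replicate 2 (4.78), beside 2 replicate 2 peaks at 26059 and 26813 bp (5.32 and 3.99). On the other side, towards Ahi1, a ciliary protein gene, shared peaks lay 41347 and 57534 bp from the gene in replicate 1 (4.54 and 4.45). Shared flank peaks with no protein-coding gene end within 1000 bp were found at 6 of 10 members, Runx1, Lmo2, Lyl1, Erg, Hlf and Myb, where 40.7% of all genes had one. With the limit of 5 on −log10 q it was 2 of 10 members (23.7% of all genes), and with fold enrichment of at least 5 also 2 of 10 (11.2%). From one list alone, such flank peaks were found at 7 members in replicate 1 (44.7% of all genes) and at all 10 in replicate 2 (63.7%). At Lyl1 one such replicate 1 peak was 1271 bp from Ier2, and the Hlf one was 8302 bp from Mmd. At Myb the replicate 1 peaks 41347 and 57534 bp from the gene were 3154 and 13033 bp from an end of Ahi1. Not all of these flank peaks were therefore nearest to the member. Summits near the 100 kb limit were few, with 1 replicate 1 and 4 replicate 2 summits from 90 to 100 kb and 3 and 5 from 100 to 110 kb.

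Other transcription factor genes of the blood network were counted by the same rule from a list of 45. Of these, 19 were called (42.2%, beside 31.9% of all genes) and 11 had an end summit in replicate 2 alone (beside 13.6% of all genes). A further 1 had one in replicate 1 alone and 14 in neither, classes whose shares of all genes are not given here. Among 10 genes for partners of the complexes, 6 were called (60%, beside 31.9% of all genes). Ranked by the lower of a gene's percentiles of fold enrichment in the 2 lists, the highest were Tcf3, which encodes E proteins that pair with Tal1 and Lyl1 (fold enrichment 6.32 in replicate 1 and 11.6 in replicate 2), and Ssbp2, a gene for a single-stranded DNA-binding protein of the LDB1 complex (5.30 and 9.03). By replicate 2 alone Zfpm1, which encodes the GATA cofactor FOG1, stood above both with 12.8, and its replicate 1 value was 3.56. Cbfb, which encodes the partner subunit of Runx1, was called with 3.62 and 8.50. Ldb1, the scaffold of the Lmo2 complex, had no end summit in either list and 1 shared internal peak.

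Among 19 relatives of the members, 8 were called (42.1%, beside 31.9% of all genes). By the same ranking the highest were Elf1, an ETS gene whose peak was shared with its neighbour Wbp4 (5.34 and 12.2), and Pbx3, a homeobox partner of Meis1 (7.10 and 7.17). Runx2, Gata1, Gata3 and Ets1 had no end summit in either list. Of these, Runx2 had 3 shared internal peaks, Ets1 had 1, and Gata1 and Gata3 had none. Among 16 other stem and progenitor factors, 5 were called (31.25%, near the 31.9% of all genes). Nfe2, an erythroid and megakaryocytic factor gene (5.96 and 9.03), and Etv6, an ETS repressor gene (5.93 and 7.64, with its neighbour Gm46977), ranked highest in the same way, and Myc, Gfi1 and Gfi1b had an end summit in replicate 2 alone. A shared internal peak was found in 19 of the 45 genes, beside 10.3% of all genes and 4 of the 10 members.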

How the data were processed

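Flag ChIP-seq peaks were used from 2 lists, one per ChIP library. Per the submitters' processing notes, which name no versions or order, reads were handled with MACS2, Bowtie2, ChIPseeker, FastQC, Trimmomatic and cutadapt on the build mm10. The cutoff, and whether the input served as control, are not given in the sources used here. Each peak was deposited with a fold enrichment, which is a linear ratio, −log10 p and −log10 q values (−log10 q of 1.31 or more in replicate 1 and of 1.30 or more in replicate 2), a summit offset, and a score, which was not used. With no counts, no interval for depth could be given. Per the labels' protocols, 10 ng of DNA went into each library, which had 16 amplification cycles.

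Of 12716 and 25807 peaks, the 12702 and 25787 on the autosomes, X and Y entered. Positions are 1-based, with summits at the deposited start plus offset. Gene bounds and start sites were those of GRCm38.p6. A called gene had, in each list, a summit no more than 1000 bp from one of its ends. Counts are given beside the share of all protein-coding genes and were not tested, since the lists belong to 1 group. The functions were tested on simulated peaks. Python 3.11.15, numpy 2.4.6 and pandas 2.3.3 were used.

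The members and lists were chosen with earlier results of these data known. The naming rule took all members, up to 3 neighbours per member at shared flank peaks and the 6 highest-ranking called genes of the other list. Rpn1, Fbxo3, Ahi1, Cbfb, Ldb1, Zfpm1 and the uncalled genes of that list were named after their values were seen. Alternatives changed the window, the peak cutoff, the flank, the overlap rule and the replicates used.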

Additional observations from a re-analysis of the deposited data

How the results depend on the processing

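No paired analysis was possible because only the Flag ChIP group had data here and no groups were compared. The number of the 10 genes called at an end was 2, and it was 1 with a window of 500 bp (27.9% of all genes), 4 with 3000 bp (36.8%), 1 with −log10 q of at least 5 (4619 of all genes, 21.1%, against 6981) and 1 with fold enrichment of at least 5 (2084 of all genes, 9.52%). From a single replicate it was 2 to 9 and for the list of 45 other factors 20 to 30 (19 from both, 6 with fold enrichment of at least 5), beside 32.6% to 45.5% of all genes. Members with an internal peak were 5 to 8 from a single replicate (11.9% to 22.7% of all genes) and 4 from both (10.3%), and those with a distal flank peak were 7 to 10 (44.7% to 63.7%) and 6 (40.7%). With −log10 q of at least 5, 16 replicate 1 and 38 replicate 2 peaks were left in the loci (40 and 106), 13 of the former shared (30; 92.0% of all such replicate 1 peaks were, against 89.2%), and 2 members had a shared distal flank peak (23.7% of all genes). With fold enrichment of at least 5 these were 8, 22, 7 (86.1%) and 2 (11.2%), and 0 members had a shared internal peak (2.16% of all genes). When overlap had to cover 50% of both peaks, 14 of the 40 replicate 1 locus peaks were shared (35.0%, where 47.1% of all replicate 1 peaks were) and 2 members had a shared internal peak (5.81% of all genes). With summits within 200 bp 17 were shared (42.5%, where 62.4% of all were). The cause of these moves was not tested. Listed start sites in place of gene ends, an alternative chosen after seeing the data, gave 2 of the 8 members with an entry and 6026 of 17492 genes (34.5%). Of the 50 alternative values of these counts 27 stayed within 1.5 times.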
